A study of Sus scrofa with 6 samples.

Results

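Chromosome 14 of the pig was followed as far as the deposited lists of methylated-DNA peaks reach. Each list stops after the same number of lines, and Yorkshire 2 stops earliest, with its last chromosome 14 peak ending at position 38283653. The proximal stretch is therefore every peak that ends at or before 38283653, taken from all 6 lists. The distal stretch is every peak that starts after that point and ends at or before 105246093, where the list of Wannanhua 2 stops, taken from the 5 lists that reach there. Overlapping peaks (1 bp or more) of different libraries were joined into regions. This gave 5582 regions from 18913 peaks in the proximal stretch and 7526 regions from 22583 peaks in the distal stretch. Together these are 13108 regions from 41496 of the 393096 peaks in the series. No peak lay across either limit. Past a list's last peak there is no data, and nothing there was read as unmethylated.

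The study profiled a back muscle, longissimus dorsi, of female pigs of 2 pure breeds, Yorkshire and Wannanhua, with 3 libraries per breed and no other treatment named in the labels. Methylated DNA immunoprecipitation sequencing (MeDIP-seq) was used, and peaks were called in each library on its own with no control library. The labels give no age and do not say that the numbered libraries of a breed came from separate animals, so each p-value reflects only how these samples vary, which may be technical variation. Bulk muscle holds fibres, fat, vessel and connective cells, and a change in the share of cells and a change within cells cannot be told apart.

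Methylation of cytosine in CG pairs is the common DNA mark of mammalian cells, dense over repeats and gene bodies and mostly low at CG-rich promoters that are in use. MeDIP pulls down fragments with an antibody against methylated cytosine, so a peak needs both a local cluster of CG pairs and their methylation. A count of peaks along a chromosome therefore reads CG content and methylation together. Pig chromosome 14 is acrocentric, with its centromere close to the end where the coordinates start. Coordinates below are those of the lists, whose genome build is not given in the sources used here, and regions were not matched to genes, exons or introns.

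After removal of duplicate tags the libraries held 6728444 to 17108367 tags, with Yorkshire 3 and Wannanhua 1 the shallowest. Fragment length, as estimated by the peak caller, was 97 to 169 bp in Yorkshire and 179 to 202 bp in Wannanhua, with no overlap between the breeds. Fragment length moves with breed in every comparison below, and the 2 cannot be told apart by design. The weakest peaks held between 7 and 13 tags in the different libraries. Where a region has no peak, tags there stayed under the calling cutoff, and the region may still hold some.

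Peaks were spread along the whole of both stretches, from a first region at position 4181. Merged regions covered 3.81 Mb, or 9.95%, of the proximal 38.3 Mb, and 4.86 Mb, or 7.26%, of the distal 67.0 Mb. The median interval between neighbouring regions was 3789 bp proximally and 4661 bp distally. Over 10 Mb bins, the mean density of the 6 libraries was 86.1 peaks per Mb in the first 10 Mb, 72.3 from 10 to 20 Mb, 78.0 from 20 to 30 Mb and 95.3 from 30 Mb to the end of the proximal stretch. Over the 5 libraries of the distal stretch, the mean was 82.0 from 40 to 50 Mb and 80.5 from 50 to 60 Mb. It was 73.4 from 60 to 70 Mb, 61.1 from 70 to 80 Mb and 73.3 from 80 to 90 Mb. It was lowest at the far end, at 49.2 from 90 to 100 Mb and 44.4 beyond. The last proximal bin held 91.0 peaks per Mb when averaged over the same 5 libraries, so the far end of the distal stretch carried fewer peaks than the end of the proximal stretch with the libraries held equal.

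At 1 Mb resolution the mean peak count ran from 28.5 to 127 in 38 proximal windows, with a median of 87.8, and from 24.6 to 119 in 66 distal windows, with a median of 67.1. The densest proximal window was 31000001 to 32000000, with 134, 151 and 128 peaks in Yorkshire 1, 2 and 3 and 87, 138 and 126 in Wannanhua 1, 2 and 3. Only Wannanhua 1, a shallow library, was below 100 there. The next densest were 6000001 to 7000000 with a mean of 125 and 33000001 to 34000000 with a mean of 117. The sparsest were the adjoining windows 19000001 to 20000000, with a mean of 28.5, and 20000001 to 21000000, with a mean of 31.3. The window 9000001 to 10000000 was the third sparsest, with a mean of 35.3. The densest distal windows were 53000001 to 54000000 with a mean of 119, 54000001 to 55000000 with 118 and 42000001 to 43000000 with 113. The sparsest were 74000001 to 75000000 with 24.6, 93000001 to 94000000 with 25.0 and 91000001 to 92000000 with 27.2. In the sparsest distal window Yorkshire 1 and 3 had 28 and 26 peaks and Wannanhua 1, 2 and 3 had 18, 27 and 24.

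**Figure D1:**
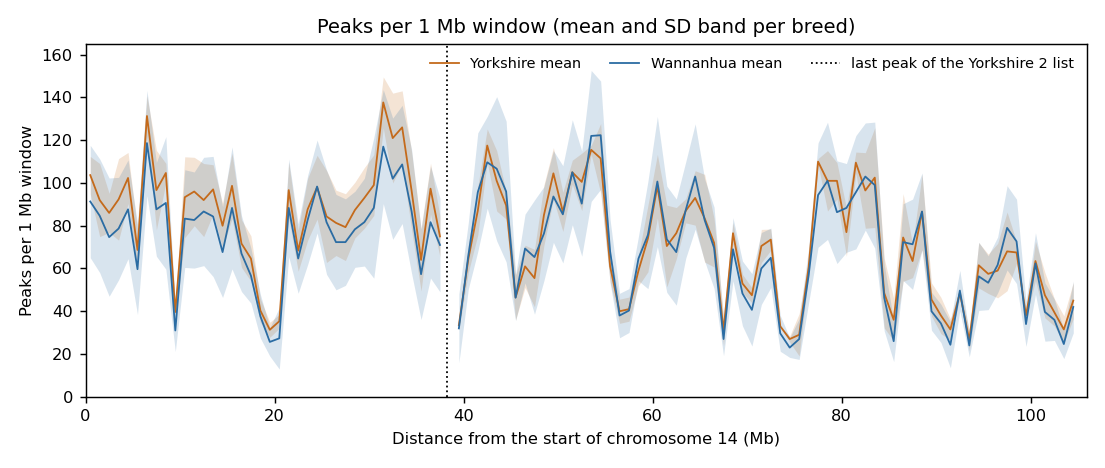
Peaks per 1 Mb window of chromosome 14 against distance from the chromosome start in Mb, as breed means (lines) with their SD (bands), the dotted line at the last peak of Yorkshire 2, with the proximal stretch from 6 libraries and the distal stretch from 5 libraries (2 Yorkshire). The means of both breeds rise and fall together along the chromosome, and densities fall past 90 Mb.

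Some intervals held no peak in any library. The longest in the proximal stretch was 16933563 to 17065072, at 131.5 kb, followed by 19685538 to 19804271 at 118.7 kb, inside the sparsest window, and 9174344 to 9285499 at 111.2 kb. The longest distal ones were 95882663 to 96027201 at 144.5 kb, 74492615 to 74635857 at 143.2 kb and 39479395 to 39621624 at 142.2 kb. All 6 intervals were shorter than the longest such interval on each of chromosomes 1, 10, 11, 12 and 13, the chromosomes complete in every list, where it ran from 149.8 to 254 kb. The background below is those chromosomes, alone or, for shares of windows, of regions of 1 breed and of tag calls, together with chromosome 14.

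Peak density on chromosome 14 was set beside each complete chromosome over the same distance from the chromosome start, library by library. In the proximal stretch chromosome 14 had 86.8, 99.5 and 75.2 peaks per Mb in Yorkshire 1, 2 and 3 and 52.5, 93.9 and 86.1 in Wannanhua 1, 2 and 3. Wannanhua 1 was the lowest of all and the ranges of the breeds overlapped. Its mean of 82.3 ± 16.8 (SD, n = 6) was above that of chromosome 13, at 67.4 ± 13.5, in 6 of 6 libraries, with a difference of 15.0 ± 3.62 and a ratio of 1.20 to 1.26. It was below chromosome 10, with a difference of -11.1 ± 2.19, and below chromosome 12, with -12.3 ± 2.56, in 6 of 6 libraries each. Each of these 3 differences had a two-sided exact permutation p of 0.03125 by sign flips within library, the smallest that 6 pairs allow, and an adjusted p of 0.0781 over 10 comparisons, so none passed 0.05 after adjustment. Chromosome 1 had 80.9 ± 15.2, with chromosome 14 higher in 5 of 6 libraries (exact p 0.125, adjusted 0.139), and chromosome 11 had 82.5 ± 14.2, with chromosome 14 higher in 4 of 6 (exact p 0.906). For chromosome 11 the mean difference of -0.19 took the other sign without Yorkshire 3, at 0.308, and without Wannanhua 1, at 0.637. The order of chromosome 14 against chromosomes 10, 11 and 12 also depended on weak peaks. With peaks of score 100 or more the proximal difference was 0.509 for chromosome 12 and 1.41 for chromosome 11, and the distal difference was 0.931 for chromosome 10, all with chromosome 14 higher.

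In the distal stretch chromosome 14 stood further above the 2 long chromosomes. It had 74.9 and 61.8 peaks per Mb in Yorkshire 1 and 3 and 47.0, 80.4 and 73.1 in Wannanhua 1, 2 and 3. The mean of 67.4 ± 13.3 (SD, n = 5) was above chromosome 1, at 49.8 ± 10.7, by 17.7 ± 4.19, and above chromosome 13, at 51.3 ± 10.6, by 16.2 ± 3.03, in 5 of 5 libraries each. The ratio ran from 1.27 to 1.48 for chromosome 1 and from 1.29 to 1.38 for chromosome 13. Chromosomes 10, 11 and 12 end before the distal limit, and there chromosome 14 was taken only as far as each of them runs. Over 49.4 Mb it was above chromosome 11 by 9.31 ± 4.06 in 5 of 5 libraries. It was below chromosome 10, with a difference of -5.08 ± 2.15 over 40.8 Mb, and below chromosome 12, with -25.7 ± 3.66 over 25.3 Mb, in 5 of 5 libraries each. All 5 exact permutation p-values were 0.0625, the smallest that 5 pairs allow, with an adjusted value of 0.0781.

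**Figure D2:**
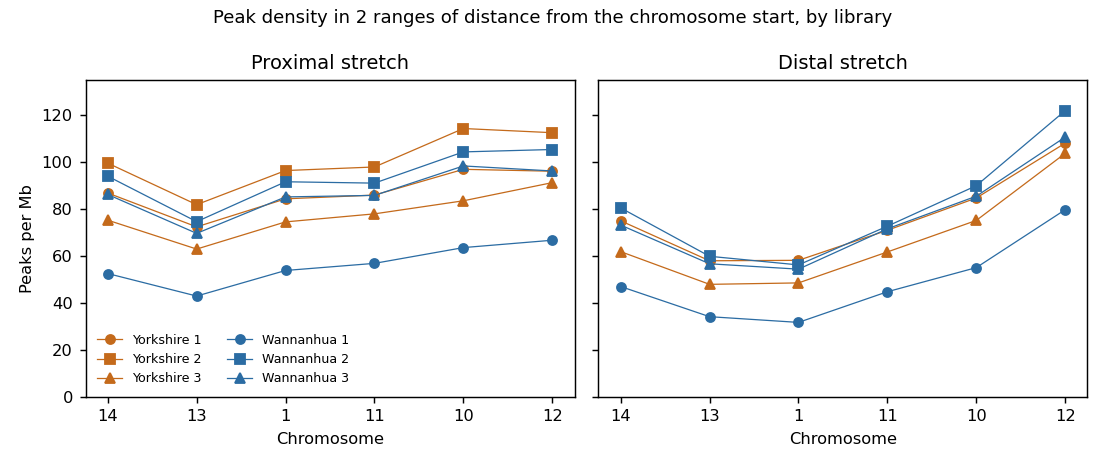
Peaks per Mb (vertical axis, from 0) on chromosome 14 and the 5 complete chromosomes, each line a library, in the proximal stretch (left, 6 libraries) and the distal range of positions (right, 5 libraries), where chromosomes 10, 11 and 12 are plotted to their own end and chromosome 14 over the whole stretch. Lines run nearly parallel, with chromosome 14 above chromosome 13 and below chromosome 12 in every library.

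Along the proximal stretch the first 20 Mb, the side nearer the centromere, had fewer peaks than the remaining 18.3 Mb. The density was 79.2 ± 16.1 against 85.8 ± 17.5 peaks per Mb, lower in 6 of 6 libraries, with a difference of -6.62 ± 2.56 (two-sided exact permutation p 0.03125, adjusted 0.0938 over 3 measures, so it did not pass). The difference took the other sign when the zone was set at 10 Mb, where the zone was higher by 5.09 peaks per Mb. Median peak width, 494 against 493 bp (exact p 0.75), and median fold enrichment over the local background, 13.9 on both sides (exact p 1), lay within the spread between libraries. As a description, the density of the first 20 Mb divided by that of the following 18.3 Mb was 0.922 ± 0.024 on chromosome 14. It was 0.658 ± 0.037 on chromosome 13, 1.00 ± 0.027 on chromosome 10, 1.17 ± 0.069 on chromosome 12, 1.39 ± 0.18 on chromosome 1 and 1.67 ± 0.15 on chromosome 11 (SD, n = 6 each).

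The breeds were compared on 5 library measures in each stretch. Median peak width in the proximal stretch was 446, 522 and 301 bp for the Yorkshire libraries 1, 2 and 3. The Wannanhua libraries had 482, 597 and 614 bp. Yorkshire 2 lay above Wannanhua 1, so the breeds overlapped. Distally it was 437 and 300 bp for Yorkshire 1 and 3 and 472, 574 and 595 bp for the Wannanhua libraries, without overlap. The means were 423 ± 112 against 564 ± 71.8 bp proximally and 368.5 ± 96.9 against 547 ± 65.8 bp distally, each with an exact permutation p of 0.2 and an adjusted p of 0.6 over 10 tests. The order of widths over libraries followed the order of estimated fragment lengths except for Yorkshire 2 and Wannanhua 1.

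Density was 87.2 ± 12.2 in Yorkshire and 77.5 ± 22.0 peaks per Mb in Wannanhua proximally (exact permutation p 0.6), and 68.4 ± 9.28 (n = 2) and 66.8 ± 17.6 distally (exact p 0.9). Peaks covered 4.13 ± 1.70% and 4.96 ± 1.92% of the proximal stretch (exact p 0.5), and 2.72 ± 1.11% and 4.09 ± 1.48% of the distal stretch (exact p 0.3). Median fold enrichment was 15.8 ± 5.46 and 12.0 ± 2.10 proximally and 19.3 ± 6.48 and 12.7 ± 2.42 distally (exact permutation p 0.3 each). Tags per peak, divided by the filtered tags in units of 1000000, were 1.96 ± 0.245 and 1.95 ± 0.197 proximally (exact p 1), and 1.96 ± 0.249 and 1.87 ± 0.203 distally (exact p 0.5). None of the 10 passed, and neither 3 against 3 nor 2 against 3 libraries can give an exact p below 0.1. Yorkshire 3 set the high end of fold enrichment, at 21.9 proximally and 23.9 distally, and had the shortest fragments and the narrowest peaks.

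To compare where each library's peaks lay, the share of its own peaks that fell in each 1 Mb window was taken. In 1 of 38 proximal windows every Wannanhua share was above every Yorkshire share, 2.63%, against 5% over all proximal and complete-chromosome windows. In 1 other window every Yorkshire share was higher, against 11.2%. Distally the Wannanhua shares were all higher in 13 of 66 windows, 19.7% against a background of 11%, and the Yorkshire shares in 6 windows, 9.09% against 21%. The Wannanhua windows included the dense window 54000001 to 55000000, with 123 and 100 peaks in Yorkshire 1 and 3 and 95, 145 and 127 in Wannanhua 1, 2 and 3. The raw counts there overlap because Wannanhua 1 had the fewest peaks of all on the chromosome. Neither count was tested.

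Regions were next sorted by how many libraries had a peak in them. In the proximal stretch 1113 regions, 19.9%, had a peak in all 6 libraries and 1465, 26.2%, in a single library. On the complete chromosomes these shares were 21.6% and 25.5%. Distally 1879 regions, 25.0%, had a peak in all 5 libraries and 2049, 27.2%, in a single one, against 23.6% and 27.9%. Median width of the merged region rose with every added library, from 432 to 804 bp proximally and from 420 to 741 bp distally. A merged region spans all its peaks, so merging by itself tends to widen regions shared by more libraries. Regions shared by all were also the more enriched. In Yorkshire 1 their median fold was 17.2, against 11.4 in its single-library regions of the proximal stretch, and in Wannanhua 3 the values were 13.3 and 9.20.

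The regions that missed a single library mostly missed a shallow one. Of the 814 proximal regions with a peak in all but 1 library, 471 lacked it in Wannanhua 1 and 163 in Yorkshire 3. Of 1314 such distal regions, 744 lacked it in Wannanhua 1 and 302 in Yorkshire 3. These are the 2 libraries with the fewest tags. Very wide shared regions were fewer than on the complete chromosomes: 15 of 1113 proximal regions, 1.35%, and 4 of 1879 distal regions, 0.213%, reached 2500 bp, beside 2.39% and 2.21%.

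**Figure D3:**
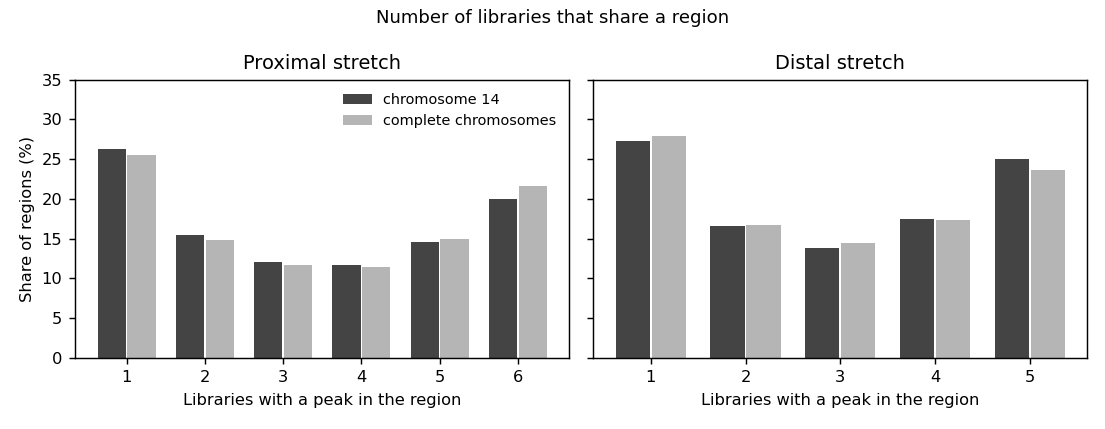
Percent of merged regions (vertical axis, from 0) by the number of libraries with a peak (horizontal axis), for chromosome 14 beside the complete chromosomes, in the proximal (6 libraries) and distal (5 libraries) stretches. In both stretches the single-library class and the class of all libraries are the tallest, and chromosome 14 differs from the complete chromosomes by less than 2 percentage points in each of these classes.

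The most enriched regions called in every library show what a strong, shared methylated site looks like on this chromosome. In the proximal stretch chr14:30706834-30707539 had the highest lowest-library fold, with 37.3, 35.1 and 40.2 in Yorkshire 1, 2 and 3 and 30.3, 28.7 and 30.2 in Wannanhua 1, 2 and 3. Every Yorkshire value was above every Wannanhua value. Its tags did not pass the test between breeds described below (log2 fold change 0.25 ± 0.30 SE, edgeR adjusted p 0.717). Next came chr14:13540274-13540915 with a mean fold of 36.1 ± 13.2, chr14:33929338-33929877 with 33.1 ± 5.98 and chr14:27982043-27982946 with 36.9 ± 12.8 (SD, n = 6 each). The last of these held the most tags of the 4, at 103, 105 and 113 in Yorkshire 1, 2 and 3 and 85, 94 and 103 in Wannanhua, a narrower range than that of the libraries' depths. Distally the 4 were chr14:82960280-82961135 at 36.2 ± 4.74, chr14:104726539-104727275 at 43.8 ± 18.8, chr14:76305518-76306064 at 42.2 ± 14.8 and chr14:73553488-73554069 at 31.5 ± 4.85 (SD, n = 5 each). Of the 8 only chr14:82960280-82961135 passed the test of tags, with 1.00 ± 0.32 (SE) on the log2 scale toward Wannanhua and an edgeR adjusted p of 0.0437.

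The widest shared regions were of another kind, long and low. In the proximal stretch chr14:6787580-6792811 spanned 5232 bp and chr14:6596945-6602134 spanned 5190 bp, both inside the dense window 6000001 to 7000000, as was the third, chr14:6228261-6232217 with 3957 bp. The first had folds of 5.46 to 7.36 over the 6 libraries. Its called length was 2876, 4343 and 1060 bp for Yorkshire 1, 2 and 3. It was 2416, 5173 and 5157 bp for Wannanhua 1, 2 and 3, so the merged width is close to what was called in Wannanhua 2 and 3. Distally the widest were chr14:52539630-52544184 with 4555 bp, chr14:54215989-54218807 with 2819 bp and chr14:54930704-54933415 with 2712 bp. In the last of these 983 and 1019 bp were called for Yorkshire 1 and 3, against 2396, 2687 and 2602 bp for the Wannanhua libraries. Its tags were higher in Wannanhua by 1.68 ± 0.35 (SE) on the log2 scale (edgeR adjusted p 0.00344).

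Libraries of the same breed shared little more of their called regions than libraries of different breeds did. The Jaccard index, the share of regions with a peak in either of 2 libraries that had one in both, averaged 0.554 within Yorkshire, 0.502 within Wannanhua and 0.502 between breeds in the proximal stretch. Distally it was 0.567 for the 1 Yorkshire pair, 0.537 within Wannanhua and 0.520 between. By tags in shared regions the correlation of log2 values, across regions within pairs of libraries, averaged 0.658 within Yorkshire, 0.777 within Wannanhua and 0.616 between breeds over 1113 proximal regions. Yorkshire 2 was closer to Wannanhua 2, with r = 0.785, than to Yorkshire 1, with 0.700, or Yorkshire 3, with 0.587. Over 1879 distal regions, where Yorkshire 2 has no data, the means were 0.620, 0.732 and 0.473. These are descriptions of libraries that share depth and fragment length within a pair to different degrees.

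Regions of a single breed were those called in all libraries of 1 breed and never in the other. Proximally 70 regions, 1.25%, were of this kind in Yorkshire, against 1.46% over the proximal and complete-chromosome regions together. There were 45, or 0.806%, in Wannanhua, against 0.799%. Distally 174 regions, 2.31%, were found in both Yorkshire libraries and none of Wannanhua, against 2.84%, and 186, or 2.47%, in the 3 Wannanhua libraries only, against 2.44%. The shares on chromosome 14 thus lay near the background, and below it for Yorkshire. The larger distal counts go with the missing library: with Yorkshire 2 left out, the proximal stretch gave 136 Yorkshire and 128 Wannanhua regions. Each other omission also raised the counts, up to 209 Yorkshire regions without Wannanhua 2 and 155 Wannanhua regions without Wannanhua 1.

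These regions were weaker than shared ones. In the proximal stretch the median fold of the Yorkshire regions was 12.3, 10.3 and 18.7 in Yorkshire 1, 2 and 3, beside 17.2, 14.8 and 26.2 in regions called in all libraries. That of the Wannanhua regions was 12.6, 8.70 and 8.67, beside 15.7, 13.7 and 13.3. Some lay close to a peak of the other breed: 27 of the 70 Yorkshire and 19 of the 45 Wannanhua proximal regions were within 1 kb of one, and 44 of 174 and 43 of 186 distally. The same share was not taken for other regions, and regions are dense, with median intervals of 3789 bp proximally and 4661 bp distally. These counts are therefore not read as a trait of regions of 1 breed. Median width was 519.5 bp for Yorkshire and 702 bp for Wannanhua regions proximally and 407.5 and 725 bp distally, in the order of the breeds' fragment lengths.

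The Yorkshire region with the highest mean score in the proximal stretch was chr14:650795-651196, with folds of 26.1, 29.6 and 39.8 from 17, 35 and 11 tags in Yorkshire 1, 2 and 3, and 4376 bp from the nearest Wannanhua peak. All 3 folds were above the library medians of shared regions. Next was chr14:23843978-23844323, with a mean fold of 21.8 ± 10.1 (SD, n = 3) and a Wannanhua peak 455 bp away. The others were chr14:518551-518957 at 19.1 ± 4.79, chr14:1153578-1154194 at 17.5 ± 2.97 and chr14:6419611-6420853 at 15.7 ± 11.0. All of these but chr14:23843978-23844323 lay in the first 10 Mb. The last, at 1243 bp the widest Yorkshire region of this stretch, was not among the regions of 1 breed with 50% reciprocal overlap, with peaks of score 100 or more, or with equal numbers of top-scoring peaks per library.

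The leading Wannanhua region of the proximal stretch was chr14:3030826-3031377, with folds of 16.5, 15.4 and 14.4 from 23, 38 and 42 tags, in the order of Wannanhua 1, 2 and 3, and lay 1743 bp from the nearest Yorkshire peak. The other 4 had similar levels: chr14:16208702-16209260 at 11.6 ± 2.16, chr14:16288727-16289459 at 11.5 ± 4.28, chr14:873271-874080 at 11.8 ± 4.12 and chr14:2988340-2988932 at 11.9 ± 2.22 (SD, n = 3 each). The last 3 were not among the regions of 1 breed with peaks of score 100 or more. A Yorkshire peak lay only 115 bp from chr14:16208702-16209260 and 86 bp from chr14:873271-874080, so both sit beside a site called in the other breed.

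The leading Yorkshire regions of the distal stretch rest on few tags. The first, chr14:94286380-94286681, had folds of 27.8 and 43.8 from 17 and 13 tags in Yorkshire 1 and 3, and no Wannanhua peak within 19417 bp. It was followed by chr14:89227016-89227521 at 28.2 ± 5.18, chr14:98115041-98115337 at 34.1 ± 11.2, chr14:71366693-71367068 at 28.5 ± 10.3 and chr14:49404603-49404944 at 25.7 ± 9.54 (SD, n = 2 each). The Wannanhua regions held more tags. The first, chr14:54835297-54836975, spanned 1679 bp and held 46, 68 and 49 tags in libraries 1, 2 and 3, at a mean fold of 13.1 ± 4.14 (SD, n = 3) and 7988 bp from a Yorkshire peak. The next was chr14:79356092-79357519, with 32, 90 and 57 tags and a mean fold of 12.8 ± 1.80. The highest folds among them were at chr14:98456155-98456613, with 19.6, 21.2 and 23.4, and chr14:94015540-94016311, with 19.1, 20.3 and 23.0. The fifth, chr14:63309769-63310601 at 11.6 ± 1.58, lay 231 bp from a Yorkshire peak. It and chr14:94015540-94016311 were not among the regions of 1 breed with peaks of score 100 or more.

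Tags could be compared only in regions called in every library, since a library without a peak has no count there. Tags were summed over the peaks of a region and scaled by edgeR's TMM method to counts per 1000000 tags in the tested regions (CPM). Tests ran over a whole table of regions called in every library, with adjustment over all its rows. The proximal table held the complete chromosomes and the proximal stretch. The distal table held the complete chromosomes and both stretches, from the 5 libraries. Of 1113 tested proximal regions 7 passed an adjusted p of 0.05. Tags were higher in Wannanhua in 6, beside 0.538% of the 20274 regions of the table, and higher in Yorkshire in 1, beside 0.138%. Together they are 0.629% of the chromosome 14 regions and 0.676% of the table. The median log2 fold change was -0.02 on chromosome 14 and -0.04 over the table.

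These 7 calls depended on which libraries were kept. Without Yorkshire 1 or without Wannanhua 3 edgeR made 0 calls. At an unadjusted p under 0.05 there were then 51 regions toward Wannanhua and 59 toward Yorkshire without Yorkshire 1, and 62 and 58 without Wannanhua 3. Without Wannanhua 2 it made 1, and without Yorkshire 3 or Wannanhua 1 it called 3 regions higher in Wannanhua and 1 in Yorkshire. Without Yorkshire 2 it called 50 and 13. With the estimated fragment length as a covariate 0 regions passed in either direction, with 43 and 51 at an unadjusted p under 0.05. DESeq2 with breed alone called 11 and 1, of which 2 and 0 were among edgeR's 6 and 1. It gave an adjusted p for only 2 of the 6 named regions that passed in edgeR, and both passed.

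**Figure D4:**
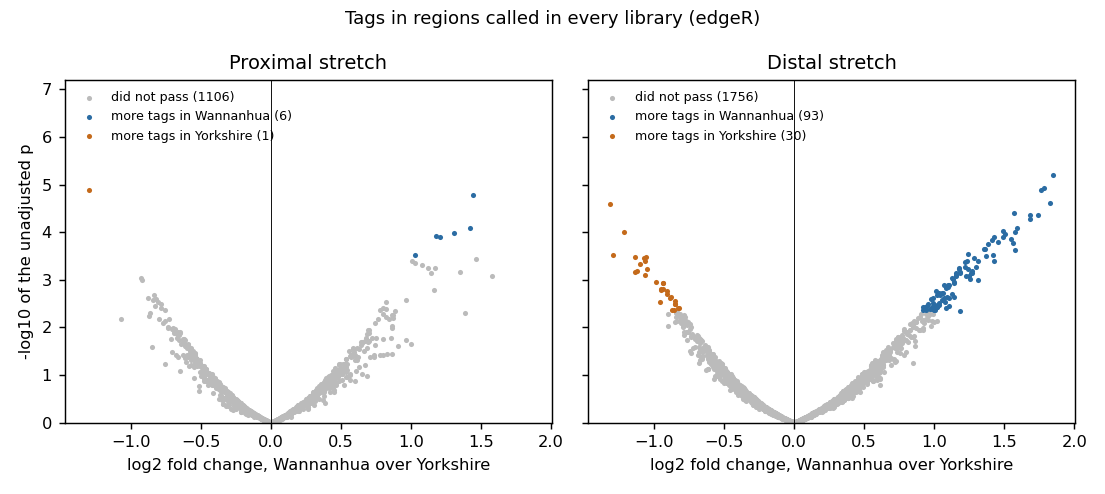
Negative log10 of edgeR's unadjusted p (vertical axis) against the log2 fold change of tags, Wannanhua over Yorkshire (horizontal axis), 1 point per region called in every library, proximal (6 libraries) and distal (5 libraries), with coloured points past an adjusted p of 0.05. The 7 proximal calls are few among 1113 points, and the 93 distal calls toward Wannanhua reach larger changes than the 30 toward Yorkshire.

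The proximal region with the largest change toward Wannanhua was chr14:15656219-15656762, with 16.8, 21.4 and 18.5 CPM in Yorkshire 1, 2 and 3 and 46.3, 38.7 and 71.0 CPM in Wannanhua 1, 2 and 3. The breeds did not overlap, and the lowest Wannanhua value was 38.7. The log2 fold change was 1.44 ± 0.29 (SE) with an edgeR adjusted p of 0.0182, and with 1 library left out the adjusted p ran from 0.00464 to 0.14, passing in 4 of 6 cases. Peaks here were about as long in both breeds, 343 bp in Yorkshire and 362 bp in Wannanhua on average, and tags per kb of called peak were 2.34 times as high in Wannanhua, where the median ratio over all tested proximal regions was 0.738. With called length as an offset its edgeR adjusted p was 0.191, and none of the 6 named proximal calls passed. A second such region was chr14:16203144-16203784, with 42.1, 34.0 and 34.6 CPM in Yorkshire and 102.8, 87.7 and 86.2 CPM in Wannanhua, a log2 fold change of 1.31 ± 0.30 (edgeR adjusted p 0.0306, from 0.0117 to 0.18 with 1 library left out, passing in 1 of 6 cases) and a ratio per kb of 2.16. Its edgeR adjusted p was 0.217 with the offset.

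The region chr14:22430963-22432873 showed the other pattern. Its CPM was 38.7, 25.2 and 46.2 in Yorkshire and 72.0, 101.4 and 109.0 in Wannanhua (log2 fold change 1.42 ± 0.32, edgeR adjusted p 0.0275). The called length there was 506 bp in Yorkshire and 1605 bp in Wannanhua on average, and tags per kb in Wannanhua were 0.794 times those in Yorkshire, above the median ratio of 0.738. With called length as an offset its log2 fold change was -0.27 (edgeR adjusted p 0.659), where the median over the tested proximal regions was -0.40. With 1 library left out it passed in 3 of 6 cases. Smaller changes toward Wannanhua were at chr14:3035914-3036769, 19.0 ± 2.87 against 47.6 ± 13.8 CPM (edgeR adjusted p 0.0323), and chr14:955306-956131, 16.7 ± 1.67 against 35.2 ± 9.37 CPM (edgeR adjusted p 0.0322; SD, n = 3 each). With 1 library left out they passed in 1 of 6 and 2 of 6 cases.

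The single region with more tags in Yorkshire was chr14:4039567-4040338, with 65.6, 66.7 and 57.7 CPM in Yorkshire and 30.8, 22.8 and 26.6 CPM in Wannanhua. The breeds were well apart, and mean called lengths were close, at 605 and 615 bp. The log2 fold change was -1.29 ± 0.25 with an edgeR adjusted p of 0.0177, from 0.00375 to 0.158 with 1 library left out, passing in 3 of 6 cases. It did not pass with called length as an offset (edgeR adjusted p 0.191) or with fragment length as a covariate (0.158), and DESeq2 gave it no adjusted p. The next 4 regions by p on the Yorkshire side did not pass: chr14:14312096-14312848 (edgeR adjusted p 0.0687), chr14:4470490-4471123 (0.0718), chr14:4061666-4062563 (0.0965) and chr14:2417080-2417959 (0.103). In all 4 each Yorkshire value was above each Wannanhua value, but they were chosen by low p from these same counts, which favours such a gap. The first 2 had 54.3 ± 8.46 against 27.8 ± 4.94 CPM and 54.0 ± 9.78 against 27.5 ± 3.66 CPM. At chr14:2417080-2417959 the breeds nearly met, with 28.6 CPM in Yorkshire 1 and 28.3 CPM in Wannanhua 1.

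Some of these regions lie from 4.536 to 21.3 kb apart, with other called regions between them, a grouping chosen after their values were seen. The Wannanhua-only region at 16208702 lies 4.917 kb from the Wannanhua-higher region at 16203144, with 2 other regions between. The Wannanhua-only region at 3030826 lies 4.536 kb from the Wannanhua-higher region at 3035914, with 1 between. On the Yorkshire side the region at 4061666, which did not pass, lies 21.3 kb from the one at 4039567 that did, with 5 between. Within 100 kb of 16203144, 3035914 and 4039567, 1 region passed in each case, of 4, 6 and 8 tested, and it was the named one. The median log2 fold changes there were 0.20, -0.13 and -0.32.

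Of 1879 tested distal regions 6.55% passed, beside 9.03% of the table. Tags were higher in Wannanhua in 93, beside 7.37% of the 22531 regions of that table, and higher in Yorkshire in 30, beside 1.66%. The distal count cannot be set against the proximal one, since it rests on 5 libraries without Yorkshire 2, and without that library the proximal stretch gave 50 and 13 calls. The direction of the split depended on scaling. With library size alone in place of TMM 49 regions were higher in Wannanhua and 82 in Yorkshire, so the share of calls toward Wannanhua was 37.4% and not 75.6%, and the median log2 fold change moved from -0.02 to -0.20. The proximal share moved from 85.7% to 70.0%. With fragment length as a covariate 0 distal regions passed in edgeR, with 55 and 42 at an unadjusted p under 0.05, and DESeq2 with breed alone called 53 and 5, of which 52 and 5 were among edgeR's 93 and 30. Leaving out Yorkshire 3 left 17 and 3 calls. Without Wannanhua 2 there were 39 and 6, without Wannanhua 3 52 and 14, without Yorkshire 1 52 and 20, and without Wannanhua 1 63 and 14.

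Regions higher in Wannanhua were wide and longer-called in that breed. Their median width was 1150 bp, beside 649 bp for regions higher in Yorkshire and 730 bp for those that did not pass. Their median called length was 434 bp in Yorkshire and 878 bp in Wannanhua. Calls were longer in Wannanhua in the other distal regions as well. The medians were 401 and 542 bp in regions higher in Yorkshire, and 407.5 and 582 bp over all tested distal regions. Tags per kb of called peak in Wannanhua were above the Yorkshire value in 66 of the 93, and in 214 of all 1879 tested distal regions. The median ratios were 1.12 and 0.686. Regions that passed were chosen by these same tags, so a ratio shifted in the direction of the call is partly built in. In regions higher in Yorkshire the median ratio was 0.402. With called length as an offset 0 regions were higher in Wannanhua and 90 in Yorkshire in edgeR, with 5 and 504 at an unadjusted p under 0.05, and the median log2 fold change was -0.53. Per 10 Mb from 40 Mb on, under TMM scaling, 23 of 340, 26 of 334, 15 of 292, 11 of 275, 12 of 287 and 5 of 208 tested regions were higher in Wannanhua, and 1 of 109 past 100 Mb. Higher in Yorkshire were 4, 3, 6, 2, 5, 6 and 3 in the same bins. Placement along the chromosome was not tested.

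The distal region with the largest change toward Wannanhua was chr14:55227496-55229262, with 30.5 and 19.1 CPM in Yorkshire 1 and 3 and 84.7, 105.6 and 84.0 CPM in Wannanhua 1, 2 and 3. The lowest Wannanhua value lay far above the highest Yorkshire value. The log2 fold change was 1.85 ± 0.34 with an edgeR adjusted p of 0.00117, from 0.00322 to 0.0233 with 1 library left out, and the ratio per kb was 1.19. A further region toward Wannanhua, chr14:55216029-55218063, lies 9.432 kb away, with 15.2 and 44.5 against 82.4, 105.6 and 93.3 CPM (log2 fold change 1.74 ± 0.36, edgeR adjusted p 0.00346). Its 2 Yorkshire values lay far apart. The log2 fold change was 1.11 without Yorkshire 1 and 2.63 without Yorkshire 3.

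The largest ratio per kb among the named distal regions, 1.97, was at chr14:48230477-48231665, with 48.8 and 25.4 CPM in Yorkshire and 181.2, 133.8 and 99.2 CPM in Wannanhua (log2 fold change 1.83 ± 0.37, edgeR adjusted p 0.00249). The 4th was chr14:47019497-47020668, at 21.4 ± 6.35 (n = 2) against 73.5 ± 13.3 CPM (n = 3) with an edgeR adjusted p of 0.0018. At chr14:50276643-50278620 the values were 22.9 and 14.8 against 54.1, 79.4 and 63.0 CPM (log2 fold change 1.78 ± 0.34, edgeR adjusted p 0.00169). There tags per kb in Wannanhua were 0.874 times those in Yorkshire, above the distal median of 0.686. With called length as an offset the log2 fold change there was -0.27, where the median over the tested distal regions was -0.53.

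Among regions higher in Yorkshire the largest change was at chr14:49101992-49102594, with 62.5 and 46.6 CPM in Yorkshire 1 and 3 and 21.2, 23.0 and 22.2 CPM in Wannanhua 1, 2 and 3. The Wannanhua values lay within 2 CPM of each other. The log2 fold change was -1.31 ± 0.26 with an edgeR adjusted p of 0.00255, from 0.00493 to 0.0802 with 1 library left out, and the ratio per kb was 0.336. The lowest ratio per kb of the 5, 0.251, was at chr14:95380166-95380888, with 48.0 ± 1.02 (n = 2) against 21.9 ± 5.54 CPM (n = 3) and an edgeR adjusted p of 0.00527. Past 90 Mb, where the 10 Mb bins were sparsest, lay chr14:95380166-95380888 and the remaining 3. The 1 Mb window around 97137272 was not sparse, with a mean of 74.6 peaks beside the distal median of 67.1. The 3 were chr14:97137272-97138542 (edgeR adjusted p 0.0103), chr14:93734696-93735743 (0.017) and chr14:102760026-102760573 (0.0109). With 1 library left out these 3 passed in 2, 2 and 3 of 5 cases, in that order. Their edgeR adjusted p then reached 0.111, 0.311 and 0.174. All 5 named Yorkshire-higher regions passed with called length as an offset, and none of the 5 Wannanhua-higher regions did. The offset moved the median log2 fold change of the tested distal regions to -0.53, toward Yorkshire. Which direction kept its calls cannot be told apart from that shift. None of the 10 passed with fragment length as a covariate.

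**Figure D5:**
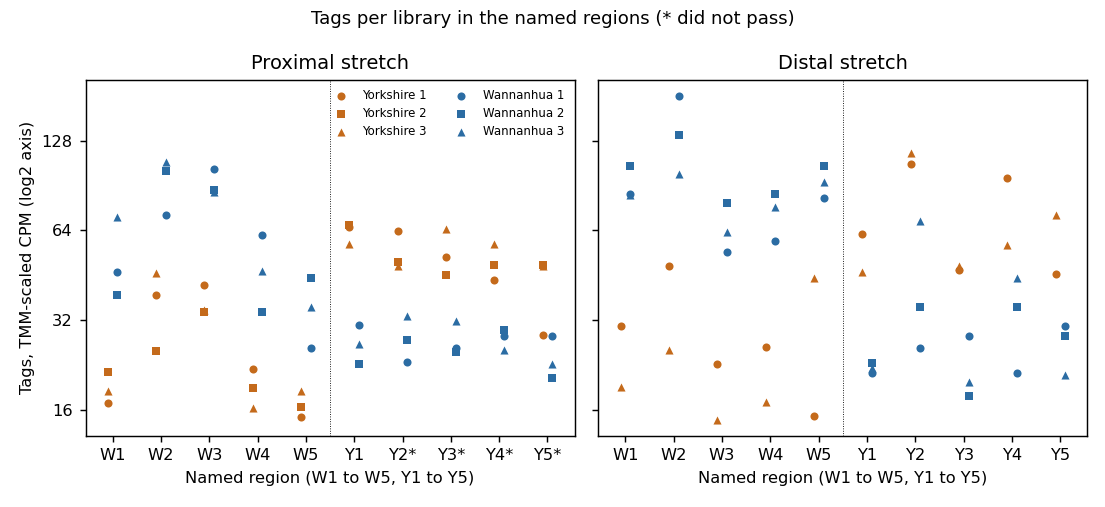
Scaled tag counts (CPM, log2 axis) of each library, colour by breed and shape by library number, at the 5 regions per direction named from the test of tags, proximal (6 libraries) and distal (5 libraries), ranked from W1 to W5 toward Wannanhua and Y1 to Y5 toward Yorkshire, with an asterisk where the region did not pass. In the proximal W1, at 15656219, the Wannanhua points lie between 38.7 and 71.0 CPM, above all Yorkshire points, and in the proximal Y1, at 4039567, the order is the other way.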

How the data were processed

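Peaks were called separately in each library with MACS 1.4.2, per the file headers, of which 5 of 6 name the version, with no control, a p cutoff of 1e-05 and at most 1 tag per position. The aligner is not given in the sources used here, nor is the genome build. Each deposited list has 65516 peaks and ends within a chromosome. It gives per peak a count of tags, not normalized, a fold enrichment, which is the authors' ratio to local background, and a score, which is the authors' multiple of the negative log10 of p. With no control, differences in copy number and mappability remain in the values.

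Peaks were merged at 1 bp overlap. Two-sided exact permutation tests were used for library measures and densities, with Benjamini-Hochberg adjustment. Tags in regions called in every library were tested with edgeR 4.0.16 in R 4.3.3 (quasi-likelihood, robust, TMM, adjusted p under 0.05 over the whole table). The filterByExpr step removed 0 regions. DESeq2 1.42.0 was used as an alternative. Only the edgeR test was also run on simulated data. Positions and plots used Python 3.11.15, numpy 2.4.6, scipy 1.17.1, pandas 2.3.3 and matplotlib 3.10.9. Called length differs between libraries, so tags per kb of called peak are given.

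Named regions were, per stretch, the 5 per direction with the largest change among those that passed (or the lowest p where fewer passed), the 5 per breed with the highest mean score among regions of 1 breed, the 4 with the highest lowest-library fold, the 3 widest, the 3 densest and 3 sparsest 1 Mb windows and the 3 longest empty intervals. The stretches and rules were chosen with earlier results of these data known. No gene or sequence was assigned.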

Additional observations from a re-analysis of the deposited data

Results flagged for a closer look

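Past position 105246093 the lists of Yorkshire 1, Yorkshire 3, Wannanhua 1 and Wannanhua 3 hold 13137 further peaks on chromosome 14 that enter no comparison above, with 2852, 3571, 2687 and 4027 peaks. They were set aside because the lists of Yorkshire 2 and Wannanhua 2 stop before that point.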

How the results depend on the processing

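The counts of tag calls moved most. Proximal calls toward Wannanhua were 6, and 11 with DESeq2, which gave no adjusted p for 811 of 1113 regions, 0 with called length as an offset and 0 with fragment length as a covariate. Those toward Yorkshire were 1, and 3 with library size alone, 0 with the offset and 0 with the covariate. With 1 library left out they ran from 0 to 50 and from 0 to 13. Distal calls toward Wannanhua were 93, and 53 with DESeq2, 0 with the offset, 0 with the covariate (chosen after seeing the data) and 49 with library size alone. Those toward Yorkshire were 30, and 5, 90, 0 and 82, and 19 with regions merged at 50% reciprocal overlap. With 1 library left out they ran from 17 to 63 and from 3 to 20. The low-count filter removed 0 regions, so dropping it could not change these calls.

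The numbers in the labels do not pair the libraries: correlations of same-numbered deviations were -0.00884, 0.0311 and -0.0493 proximally and -0.0614 and -0.0289 distally. With the number as a replicate block 14 proximal regions were higher in Wannanhua and 1 in Yorkshire, and 53 and 14 distally.

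Regions of 1 breed in Wannanhua fell to 23 proximally and 86 distally with peaks of score 100 or more. Leaving out 1 library, which loosens the definition, gave 81 to 209 Yorkshire and 59 to 155 Wannanhua regions proximally and 198 to 754 and 243 to 504 distally.

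Wannanhua minus Yorkshire density took the other sign with peaks of at least 400 bp, at 18.6 proximally and 30.6 distally, and ran from -17.8 to 2.88 and from -8.34 to 8.40 with 1 library left out. The difference of scaled tags per peak became 0.0590 proximally at score 100 and ran from -0.130 to 0.114 proximally and -0.268 to 0.0842 distally with 1 library left out. Covered percent ran from -0.0433 to 1.93 proximally. Chromosome 14 minus chromosome 1 was -1.08 proximally with peaks of at least 400 bp. At score 100 it was 1.41 for chromosome 11, 0.509 for chromosome 12 and, distally, 0.931 for chromosome 10. For chromosome 11 it ran from -0.820 to 0.637 proximally with 1 library left out. The first 10 Mb minus the rest was 5.09 peaks per Mb, 25.8 bp of width and -1.19 of fold. The 20 Mb difference of fold was -0.000833 at score 100 and ran from -0.123 to 0.095 with 1 library left out, and that of width from -0.9 to 4. With the offset the log2 fold changes at 22430963 and 50276643 were both -0.27, beside medians of -0.40 over the tested proximal and -0.53 over the tested distal regions. Except where stated, the cause was not tested. Wannanhua 1 and Yorkshire 3 had the fewest filtered tags and were the libraries most often missing from otherwise shared regions; the part of depth was not tested.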
